A study of Homo sapiens with 6 samples.

Results

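The genes described here are 10 protein-coding genes whose products the liver secretes into blood plasma: ALB, AFP, TF, HPX, TTR, SERPINA1, FGA, FGB, FGG and VTN. They were taken by name from GENCODE 44 (hg38), where 20033 protein-coding genes were used in all, and each was examined over its gene body plus 10 kb on either side, called its window. The labels give the material as HepG2, a cell line established from a human liver tumour, which was grown in culture either as control cells or after sodium benzoate (SB, 10 mM for 24 h). Chromatin cut with micrococcal nuclease was precipitated with a pan antibody against acetylated lysine (Kac) or against benzoylated lysine (Kbz), so the histone and the residue that carried a mark are not known. The 6 libraries form 6 groups of 1 library each (input, Kac and Kbz, from control and from SB-treated cells), and the peak lists of control Kac (70326 peaks), SB Kac (63282) and SB Kbz (24308) were used. Per the labels, no peaks came out of the control Kbz library, and the input libraries were not analysed here.

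Hepatocytes make most plasma proteins, and in liver cells their genes are transcribed from promoters bound by factors of the HNF1, HNF4, FOXA and C/EBP families. Acetylation of histone lysines neutralises their charge and is found at active promoters and enhancers. Benzoylation places a bulkier aromatic acyl group on the same kind of residue, and SB feeds it through benzoyl-CoA. ALB encodes albumin, the main carrier protein of plasma, and AFP its fetal relative alpha-fetoprotein. TF encodes the iron carrier transferrin, HPX the haem-binding hemopexin and TTR transthyretin, a carrier of thyroid hormone. SERPINA1 encodes alpha-1-antitrypsin, an inhibitor of neutrophil elastase. FGA, FGB and FGG encode the chains of the clotting protein fibrinogen, and VTN encodes vitronectin, an adhesion protein.

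Most of these promoters are poor in CpG and several carry the letters of liver factor sites. RefSeq promoter windows (GRCh38.p14, 250 bases before to 50 after the start) were matched for 9 of the 10 genes, all but TTR. The 150 bases before the start are printed for 6 of them, 5′ to 3′ on the gene's own strand, to show the sequences at which the calls below were looked for. Capitals mark GTTAAT (the HNF1 core) in ALB, AFP, FGB and SERPINA1, TTGCNNAA (C/EBP) in ALB, FGB and VTN, and TATAAA in AFP, on either strand. HPX holds none of these in this stretch. The positions are chr4:73404137-73404286 (plus strand) for ALB, chr4:73436071-73436220 (plus) for AFP, chr4:154562861-154563010 (plus) for FGB, chr14:94388603-94388752 (minus) for SERPINA1, chr11:6440988-6441137 (minus) for HPX and chr17:28370308-28370457 (minus) for VTN.
ALB: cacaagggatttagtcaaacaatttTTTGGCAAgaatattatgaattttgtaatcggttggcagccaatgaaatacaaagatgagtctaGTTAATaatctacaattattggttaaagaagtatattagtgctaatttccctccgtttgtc
AFP: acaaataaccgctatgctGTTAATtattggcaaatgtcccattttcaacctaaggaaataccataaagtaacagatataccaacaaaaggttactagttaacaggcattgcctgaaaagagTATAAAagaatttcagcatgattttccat
FGB: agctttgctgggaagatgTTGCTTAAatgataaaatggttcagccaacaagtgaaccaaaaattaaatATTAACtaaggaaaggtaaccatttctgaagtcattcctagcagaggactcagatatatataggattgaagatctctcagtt
SERPINA1: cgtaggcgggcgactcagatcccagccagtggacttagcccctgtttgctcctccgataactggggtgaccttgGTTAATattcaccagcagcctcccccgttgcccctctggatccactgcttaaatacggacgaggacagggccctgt
HPX: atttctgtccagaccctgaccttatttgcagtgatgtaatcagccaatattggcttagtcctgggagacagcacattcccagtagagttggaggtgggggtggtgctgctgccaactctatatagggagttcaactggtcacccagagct
VTN: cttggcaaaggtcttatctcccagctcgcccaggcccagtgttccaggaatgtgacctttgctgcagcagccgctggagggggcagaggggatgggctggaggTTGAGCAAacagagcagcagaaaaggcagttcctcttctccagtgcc

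The HNF1 core lies at −61 to −56 from the transcription start site (TSS) in ALB and at −76 to −71 in SERPINA1. In FGB it is on the opposite strand at −82 to −77, and in AFP it lies at −132 to −127, upstream of a TATA box at −29 to −24. Over the whole 300-base windows, GTTAAT or its complement ATTAAC was present in 5 of the 9 promoters (ALB, AFP, SERPINA1, FGA and FGB), beside 4.97% of all 15344 promoters and 11.4% of those poor in CpG. TTGCNNAA or its complement was present in 7 of 9, beside 8.04% of all and 13.3% of those poor in CpG. TGTTTAC or TATTTAC (FOXA, either strand) was present in ALB and FGB, beside 4.13% of all and 7.84% of those poor in CpG. TATAAA was present in AFP alone, beside 9.41% of all and 23.2% of those poor in CpG. The HNF4 letters CAAAGTCCA were in 0 of 9, beside 0.319% of all and 0.9% of those poor in CpG. The motifs were searched on both strands, and a match describes the letters only.

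Hardly any of these genes had a peak at its start. The canonical TSS lay under a control Kac peak in 1 of 10 genes (VTN), beside 59.1% of all protein-coding genes. It lay under an SB Kac peak in 0 of 10, beside 60.4%, and under a Kbz peak in 0 of 10, beside 45.8%. The HPX start came next, 769 bp from a control Kac peak. With 1 library per group there is no error between replicates and no test between conditions, so these counts describe 3 libraries. A peak list gives no read totals, so depth is unknown, and a gene without a peak is one where none was called.

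Peaks elsewhere in the windows were more frequent but still less so than over all genes. At least 1 control Kac peak fell in the windows of 6 genes (AFP, TF, HPX, TTR, FGB and VTN), beside 84.5% of all genes. SB Kac had 7, the same list plus SERPINA1, beside 83.1%, and Kbz had 3 (TF, HPX and VTN), beside 75.2%. ALB, FGA and FGG had no peak of any list, as had 13.7% of all genes. The windows of ALB and AFP overlap, as do those of the fibrinogen genes, so peaks were counted once: 12 control Kac, 13 SB Kac and 3 Kbz peaks over 7 merged windows of 372.8 kb.

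**Figure D1:**
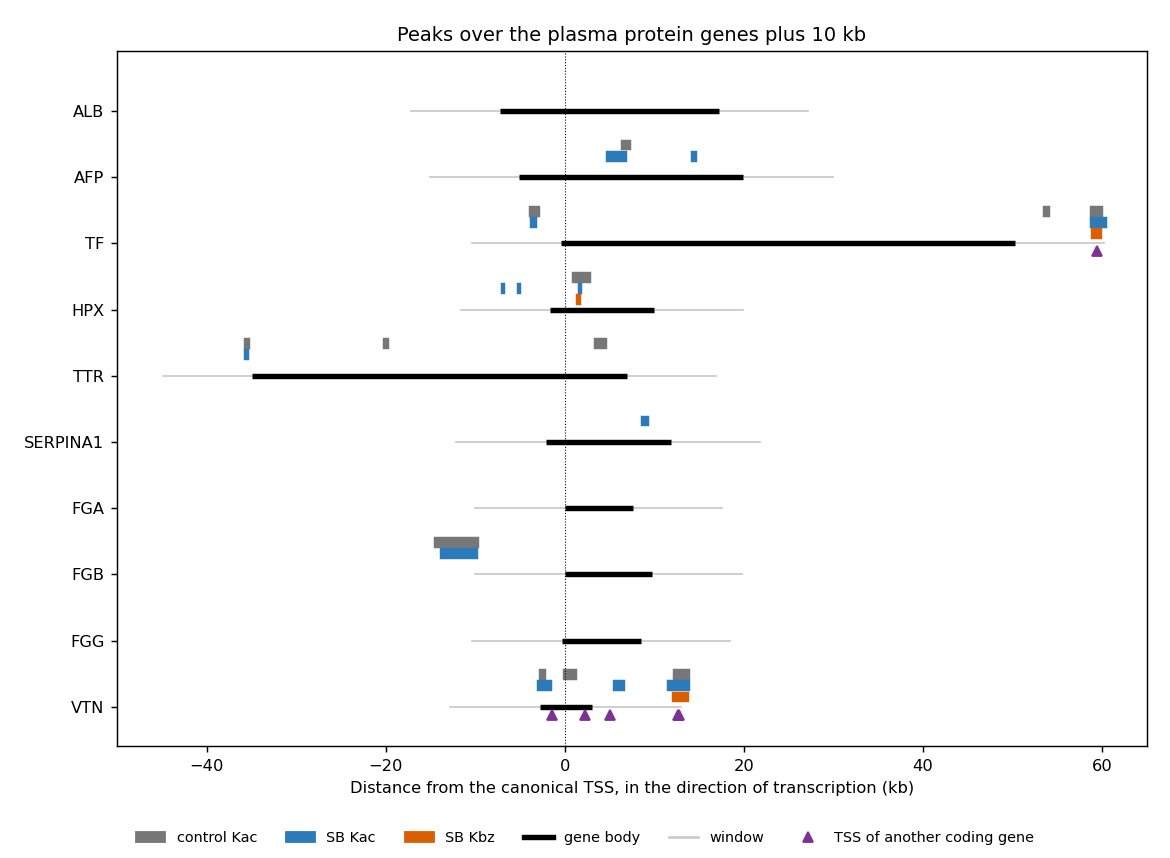
Peaks of the 3 lists over each gene, by distance from the canonical TSS in kb along the direction of transcription. Black bars are gene bodies, grey lines the windows of 10 kb on either side, and triangles the starts of other protein-coding genes. Only the VTN start lies under a peak, and the rows of ALB, FGA and FGG are empty.

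The marked share of the windows was small. Control Kac peaks covered 3.19% of the merged windows, SB Kac peaks 3.17% and Kbz peaks 0.717%. For control Kac the median over the 10 single windows was 1.67%, for SB Kac 1.44% and for Kbz 0%. Over all protein-coding genes the medians were 7.02%, 6.88% and 2.37%. VTN alone exceeded these medians, with peaks of control Kac on 11.8% of its window, of SB Kac on 16.8% and of Kbz on 4.08%.

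**Figure D2:**
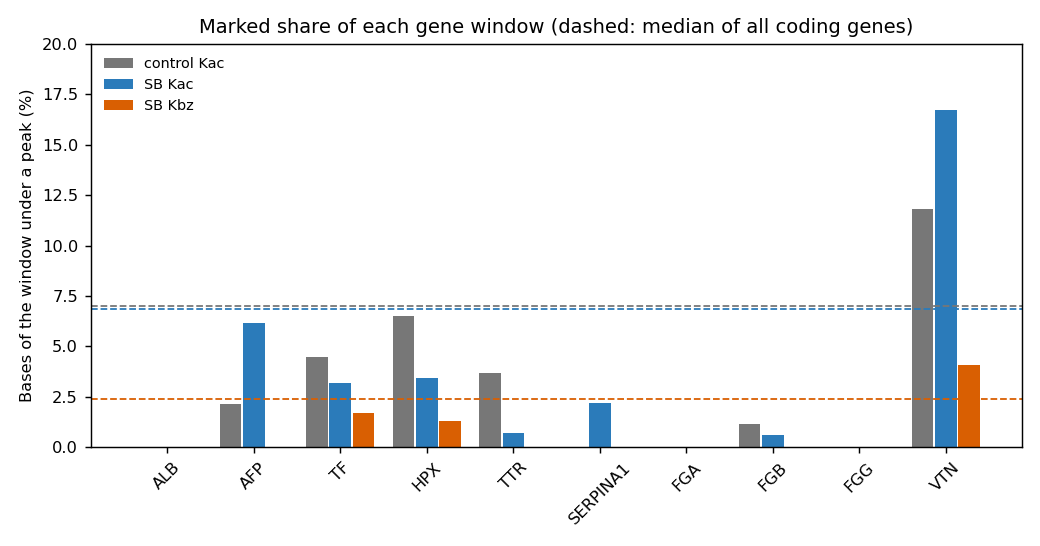
Percent of the bases of each gene window under a peak, for control Kac, SB Kac and SB Kbz, with dashed lines at the medians of all protein-coding genes (7.02%, 6.88% and 2.37%). VTN reaches 11.8%, 16.8% and 4.08%, while ALB, FGA and FGG are at 0 in every list.

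The distance from a gene's start to the nearest peak shows how far the marks were. For control Kac its median over the 10 genes was 8000 bp, for SB Kac 9169 bp and for Kbz 59456 bp. Over all protein-coding genes the medians were 0, 0 and 198 bp. The Kbz distance ran from 1278 bp at HPX to 176260 bp at AFP.

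**Figure D3:**
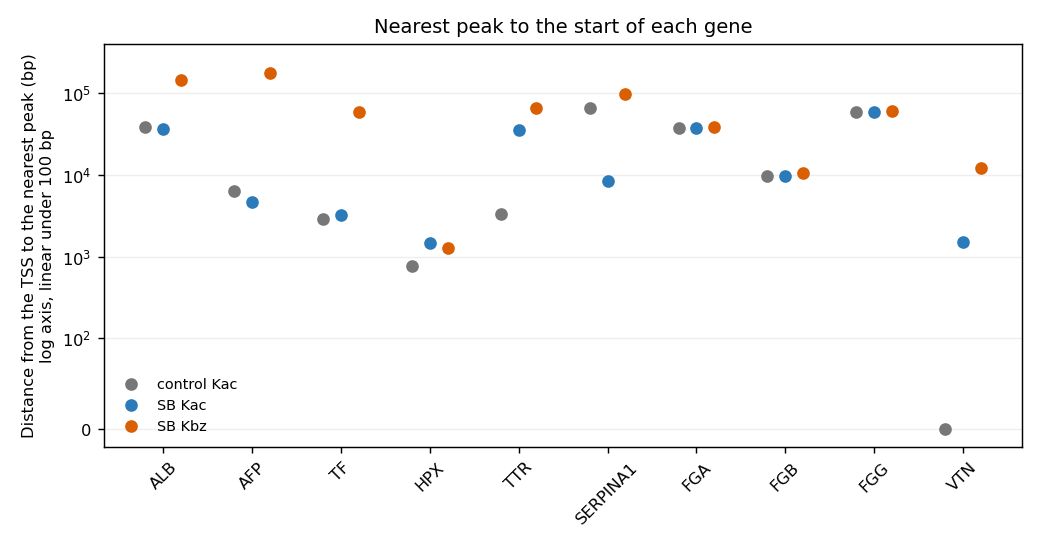
Distance in bp from the canonical TSS of each gene to the nearest peak of each list, on a log axis that is linear under 100 bp. The Kbz points lie between 1278 bp (HPX) and 176260 bp (AFP), and only VTN has a point at 0, in control Kac.

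ALB and AFP are neighbours on chromosome 4, and ALB had no peak while AFP carried Kac inside the gene. ALB (chr4:73397114-73421482, plus strand) had its nearest Kac peak 38283 bp from the start in control cells and 36536 bp in SB-treated cells. Those are the peaks inside AFP (chr4:73431138-73456174, plus strand). The AFP gene carried a control Kac peak over exon 6 (chr4:73442570-73443543) and an SB Kac peak over exon 5 (chr4:73440823-73443098), which shared 529 bp. A further SB Kac peak lay over exon 11 and held an alternative AFP start. The covered share of the AFP window was 2.16% in control Kac and 6.18% in SB Kac. The direction turned when calls were held to a listed −log10 q of 2 or more, the value that matches the stated FDR. The SB Kac peak over exon 5 is listed at 1.501, and without it SB Kac covered 1.13%. Their rank by fold within the list was low to middling: the control peak stood at percentile 53.4 and the SB peaks at 11.2 and 37.4. The deposited fold, the density of reads over the background, is comparable only inside a list, and percentiles are therefore given. The nearest Kbz peak to either gene covered the start of ANKRD17, 144326 bp from ALB and 176260 bp from AFP.

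TF (chr3:133746040-133796641, plus strand) had marks before and after the gene but not at its start. A control Kac peak at chr3:133742443-133743508 ended 2885 bp before the TSS and stood at percentile 81.9. The SB Kac peak there (chr3:133742506-133743175) lay wholly inside it, at percentile 11.5. A control Kac peak past the gene's 3′ end, at percentile 66.2, had no SB Kac counterpart. The other peaks of the TF window, 1 in each list and at percentiles 94.5 (control Kac), 88.5 (SB Kac) and 77.9 (Kbz), covered the start of SRPRB, a subunit of the signal recognition particle receptor, 59422 bp from the TF start. Without them control Kac covered 2.53% of the TF window, SB Kac 0.949% and Kbz 0%.

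HPX (chr11:6431049-6442617, minus strand) was the only gene with a Kbz peak inside its own body. The Kbz peak, chr11:6439294-6439709, lay in intron 4, was 416 bp long and stood at percentile 17.9. All of it lay under a control Kac peak that ran over exons 4 and 5 (chr11:6438157-6440218, percentile 16.7). It shared 244 bp with an SB Kac peak (chr11:6439126-6439537, percentile 43.2). These are weak calls: each ranks below the median fold of its list. SB Kac had a further pair of peaks upstream of the gene, 4983 and 6786 bp before the start, at percentiles 49.8 and 30.8. Control Kac covered 6.53% of the window, SB Kac 3.43% and Kbz 1.32%.

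The stretch that all 3 lists share in HPX intron 4 is printed because it is the single place within these genes where Kbz was called. It is chr11:6439294-6439537 (hg38, minus strand, 244 bases), and capitals would mark CpG, of which it holds 0.
HPX intron 4: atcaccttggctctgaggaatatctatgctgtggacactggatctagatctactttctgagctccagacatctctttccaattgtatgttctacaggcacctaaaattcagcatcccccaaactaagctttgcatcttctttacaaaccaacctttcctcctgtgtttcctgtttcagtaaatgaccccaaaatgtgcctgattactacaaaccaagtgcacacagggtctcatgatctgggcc

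TTR (chr18:31557009-31598833, plus strand) carried Kac without Kbz. Its strongest peak in each Kac list was far upstream of the canonical TSS but just outside the annotated gene body. These peaks were control Kac at chr18:31556032-31556569 (percentile 66.3) and SB Kac at chr18:31556030-31556460 (percentile 51.5). They shared 429 bp and lay 35308 bp or more before the TSS. The nearest annotated start to that control peak was that of the antisense RNA gene DSG2-AS1, at 307 bp. Further control Kac peaks, in the gene body upstream of the canonical transcript (percentile 10.5) and over exon 3 (percentile 7.26), had no SB Kac counterpart. The covered share of the window was 3.70% in control Kac and 0.697% in SB Kac. With a listed −log10 q of 2 or more it was 1.63% in control Kac, since the peak over exon 3 is listed at 1.987. The nearest Kbz peak was 66141 bp from the start.

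SERPINA1 (chr14:94376747-94390693, minus strand) had a single peak, in SB Kac over exon 4 (chr14:94379343-94380084), at percentile 27.3 and with a listed −log10 q of 1.81. In control Kac the nearest peak lay 65246 bp from the start, over that of SERPINA6, the gene of corticosteroid-binding globulin. The nearest Kbz peak was 97280 bp away.

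The fibrinogen genes occupy chr4:154563011-154572807 (FGB, plus strand), chr4:154583126-154590742 (FGA, minus strand) and chr4:154604134-154612967 (FGG, minus strand). No peak of any list touched the gene bodies. The FGB window reached the edge of a broad peak over the start of PLRG1, a splicing factor gene, and so counted as marked by 350 bp in control Kac and 182 bp in SB Kac. The Kbz peak there stopped 509 bp short of the window. Measured from the starts, the PLRG1 peak of control Kac lay 9651 bp from FGB, 37382 bp from FGA and 59296 bp from FGG.

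VTN (chr17:28367284-28373091, minus strand) was the most marked of the 10, in a window that also holds the starts of POLDIP2, TMEM199, SEBOX, SARM1 and ENSG00000273171. A control Kac peak at chr17:28369021-28370468 (percentile 33.6) ran from position −161 of the VTN start over exons 1 to 5. It shared 0 bp with SB Kac and 0 bp with Kbz. A control Kac peak of 662 bp, 2153 bp before the start (percentile 48.2), lay wholly inside an SB Kac peak of 1636 bp (percentile 71.1). Both peaks held an alternative VTN start. SB Kac had another peak downstream of the gene, at percentile 19.8, over an alternative SARM1 start. SARM1, which acts in axon degeneration, has its canonical start 1387 bp from that of VTN and 108 bp from the larger SB Kac peak.

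The Kbz peak of the VTN window lay 11971 bp from the VTN start, at chr17:28356549-28358336, over the paired starts of POLDIP2 and TMEM199. It stood at percentile 93.2, and the Kac peaks over the same starts at 77.7 (control) and 98.2 (SB). Without the peaks on neighbouring promoters control Kac covered 8.18% of the VTN window, SB Kac 10.8% and Kbz 0%.

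Of the 3 Kbz peaks in these windows, 2 covered the start of another protein-coding gene, as did 3 of the 12 control Kac and 3 of the 13 SB Kac peaks. Over the whole lists 32.9% of Kbz, 14.7% of control Kac and 16.7% of SB Kac peaks covered a protein-coding start. Among calls with a −log10 q of at least 5, these made up 2 of 2 Kbz, 3 of 5 control Kac and 3 of 4 SB Kac peaks, beside 49.1%, 37.1% and 46.9% of such calls over the whole lists. The 150 bases before the starts of the neighbours are printed for contrast with those above, with CpG in capitals. They are chr17:28357528-28357677 (minus strand) for POLDIP2, with 20 CpG, chr4:154550401-154550550 (minus) for PLRG1, with 14, and chr3:133805665-133805814 (plus) for SRPRB, with 11 (RefSeq, GRCh38.p14).
POLDIP2: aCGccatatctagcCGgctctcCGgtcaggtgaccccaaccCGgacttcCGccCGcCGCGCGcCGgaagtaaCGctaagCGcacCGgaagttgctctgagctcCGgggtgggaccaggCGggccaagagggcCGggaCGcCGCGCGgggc
PLRG1: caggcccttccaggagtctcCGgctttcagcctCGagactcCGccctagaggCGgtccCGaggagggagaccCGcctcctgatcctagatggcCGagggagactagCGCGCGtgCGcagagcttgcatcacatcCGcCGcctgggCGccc
SRPRB: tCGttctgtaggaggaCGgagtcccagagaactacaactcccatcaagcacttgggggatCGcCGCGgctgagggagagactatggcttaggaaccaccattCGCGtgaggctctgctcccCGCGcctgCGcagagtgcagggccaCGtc

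In the same stretch FGB and HPX hold 0 CpG, AFP 1, ALB and VTN 2 each, and SERPINA1 7. Over the 300-base windows the median ratio of observed to expected CpG was 0.199 in the 9 genes and 0.783 in all promoters, and the median GC content 52.0% and 63.7%. The ratio was under 0.4 in 6 genes (AFP, FGA, FGB, FGG, HPX and VTN), between 0.4 and 0.6 in ALB (0.481) and SERPINA1 (0.488), and 0.825 in TF.

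Promoters of low CpG ratio had few peaks throughout the genome. In the class under 0.4, which holds 3557 promoters, the start lay under a peak in 20.4% (control Kac), 18.4% (SB Kac) and 6.63% (Kbz). In the class of 0.4 to under 0.6, with 1212 promoters, the shares were 47.1%, 45.5% and 32.2%. In the class of 0.6 and over, with 10575 promoters, the shares were 76.9%, 79.6% and 64.2%. Of the 6 plasma protein genes in the low class, VTN alone had its start under a peak, in control Kac. ALB and SERPINA1, in the middle class, and TF, in the high class, had none.

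**Figure D4:**
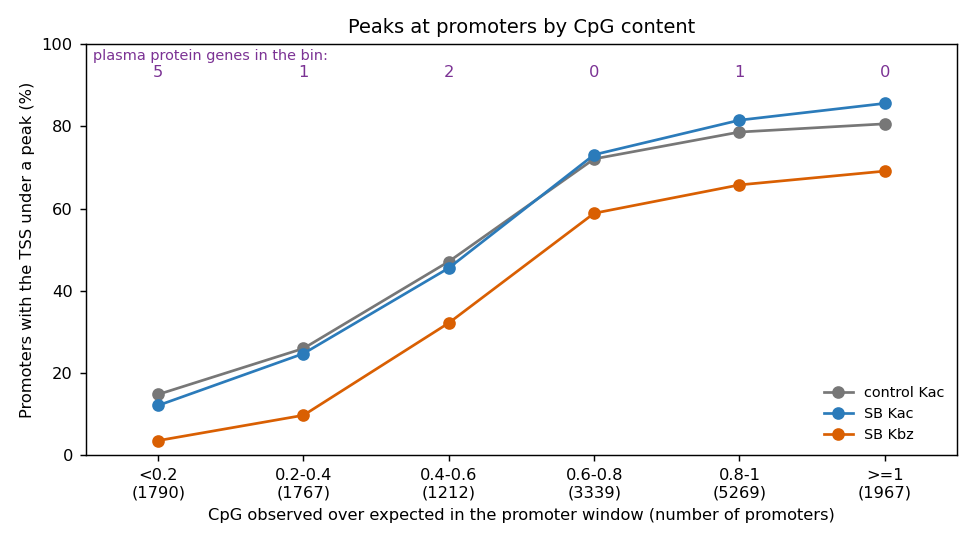
Percent of promoters with the TSS under a peak of each list, by the ratio of observed to expected CpG in the 300-base window, with the number of promoters under each bin and the number of plasma protein genes above it. The shares run from 14.8% (control Kac), 12.1% (SB Kac) and 3.58% (Kbz) in the lowest bin, which holds 5 of the 9 genes, to 80.6%, 85.6% and 69.1% in the highest.

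Between control and SB-treated cells the Kac calls at these genes overlapped in part. Of the 12 control Kac peaks 8 (66.7%, exact 95% binomial interval 34.9 to 90.1) overlapped an SB Kac peak by at least 1 bp, beside 64.7% over the whole list. Of the 13 SB Kac peaks 8 (61.5%, 31.6 to 86.1) overlapped control Kac, beside 72.5%. The intervals cover counting error only. The median percentile of peaks without a counterpart was 22.1 for the 4 in control Kac (7.26 to 66.2) and 30.8 for the 5 in SB Kac (19.8 to 49.8). For the 8 shared peaks of each list it was 72.0 (16.7 to 94.5) and 61.3 (11.2 to 98.2), so the ranges overlap. Of the shared peaks 3 in each list were on the promoter of a neighbouring gene, and of the others 0.

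By gene, the bases under Kac were fewer in SB-treated cells in 4 of the 7 genes with any Kac, beside 52.7% of all genes with Kac. The covered length fell by 1854 bp at TTR, fell by 978 bp at HPX, fell by 898 bp at TF and fell by 168 bp at FGB. Higher values were found for AFP (1809 bp more), VTN (1278 bp more) and SERPINA1 (742 bp more). These increases rest largely on calls with a listed −log10 q under 2. With −log10 q held to 2 or more, the bases under Kac were fewer in SB-treated cells in 5 of 6 genes, beside 55.6% of all genes with such Kac. AFP then fell by 467 bp, SERPINA1 had no peak, and VTN alone was higher, by 127 bp. The direction depended on the setting. With −log10 q of 5 or more, the bases were fewer in 3 of 4 genes and more in 1. With the 15000 strongest peaks of each list, they were fewer in 1 of 4 genes and more in 3. Without peaks on the starts of other genes, they were fewer in 3 of 6 genes and more in 3. Depth, which is unknown for both libraries, was not tested as a source.

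Kbz calls lay where Kac was also called, here as in the whole list. All 3 Kbz peaks (100%, exact interval 29.2 to 100) overlapped SB Kac, beside 93.7% of the Kbz list. Of the 13 SB Kac peaks 4 (30.8%, 9.09 to 61.4) overlapped Kbz, beside 33.8%. These were the peaks at SRPRB, at POLDIP2 and TMEM199, at PLRG1 and in HPX intron 4.

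Marked starts were also in the minority among other genes for plasma proteins of the liver. Among 32 such genes the start lay under control Kac in 6 (18.8%), SB Kac in 8 (25%) and Kbz in 1 (3.12%), SERPING1, the gene of the C1 inhibitor. Of the 10 apolipoprotein genes, 4, 3 and 2 had a marked start, and of 11 liver transcription factor genes 5, 5 and 2. Of 12 genes of other tissues, such as insulin and rhodopsin, 1, 1 and 0 did, and the marked gene was GFAP in both Kac lists. Kac covered a median of 4.82% (control) and 2.99% (SB) of the windows of those 12 genes. For the 10 plasma protein genes these medians were 1.67% and 1.44%. Promoter windows with a CpG ratio under 0.4 were matched for 19 of the 32 other plasma protein genes and 7 of the apolipoprotein genes. Of the 19, the start lay under control Kac in 5, SB Kac in 5 and Kbz in 0. Of the 7, it did so in 3, 3 and 2. Over all promoters of that class the shares were 20.4%, 18.4% and 6.63%. Checked against the label, then, the defining secreted products of a liver line were mostly without Kac at their starts, while the transcription factor gene FOXA3 was marked in all 3 lists. Whether the genes were expressed in these cultures, and whether the cells were of the labelled line, was not tested, so the values hold for the chromatin of cells labelled HepG2.

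**Figure D5:**
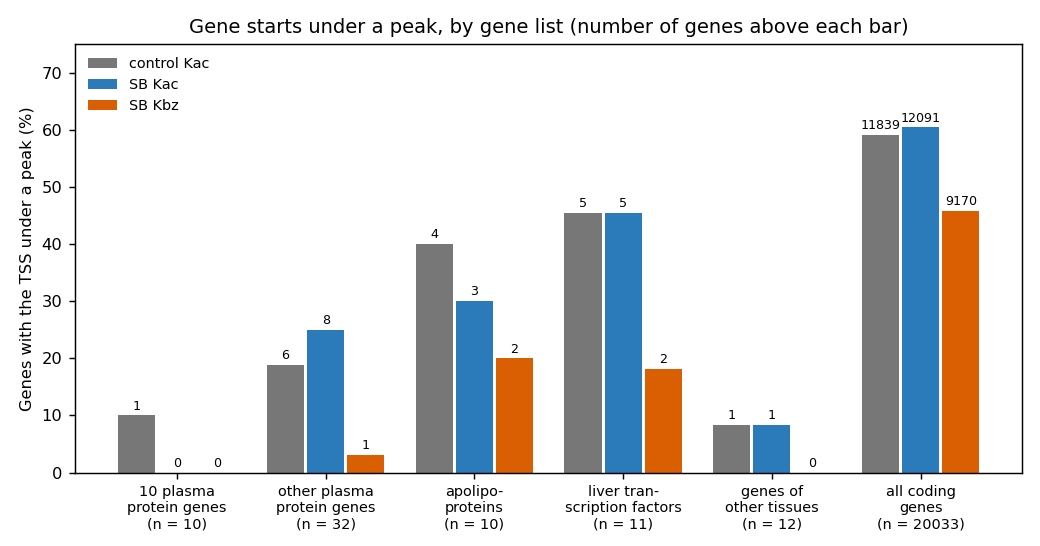
Percent of genes with the canonical TSS under a peak of each list, with the number of genes above each bar. The 10 plasma protein genes have 1, 0 and 0 marked starts, beside 59.1%, 60.4% and 45.8% of all protein-coding genes.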

How the data were processed

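ChIP-seq peak lists of 3 libraries were used, 1 per group. According to the study's methods and the labels, the authors sequenced 50 bp single reads, aligned them with Bowtie2 2.2.6 to hg38, kept unique reads, removed duplicates with SAMtools 0.1.19 and called peaks per library with MACS2 2.1.1 at a stated FDR of 0.01. In the deposited lists the fold is a linear ratio of a peak's read density over background, −log10 p and −log10 q grade the call, and the display score was not used. Every deposited list had 1.31 as its lowest −log10 q, under the 2 that matches the stated FDR. These values were taken as listed, 1 per peak, and how they relate to the cutoff used in calling was not tested. All peaks on 24 chromosomes were kept, and 3 of control Kac that lay elsewhere were dropped. No peak ran past a chromosome end. Sequencing depth is unknown.

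Windows were gene bodies plus 10 kb in GENCODE 44, the TSS was that of the canonical transcript, and an overlap was at least 1 bp. Python 3.11.15, pandas 2.3.3, numpy 2.4.6, scipy 1.17.1, matplotlib 3.10.9 and bedtools 2.31.1 were used. Overlap counting was checked on simulated queries, and its counts for 20033 windows per list differed from bedtools in 0. All 12 promoter windows of the genes matched hg38. All 10 genes were named, besides genes with a start in their windows and, chosen after their values were seen, the genes at the nearest peaks and those of other lists with a marked start or no peak. Some genes of the other lists are not reported here by name. The genes and gene lists were chosen with earlier results of these data known. Alternatives were stricter q, the 15000 strongest peaks, other windows, other definitions of the start, merged peaks, a 50% overlap, and leaving out peaks on neighbouring promoters.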

Additional observations from a re-analysis of the deposited data

How the results depend on the processing

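Leaving out a replicate was not possible with 1 library per group. No paired analysis was possible because no group holds more than 1 library. Of 122 values recomputed for 20 results under 10 settings, 83 stayed within 1.5 times the reported count or covered share, within the exact interval of a share or within 1 SD over genes of a median, and 39 moved. The number of genes with the start under Kbz stayed at 0 in every setting run.

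At −log10 q values from 5 upward, control Kac kept 0 marked starts, 5 peaks, a covered share of 1.14% and a median percentile of 20.9, ranked among the peaks left. SB Kac kept peaks at 4 genes, 4 peaks in all, covering 1.00%, and 100% of them overlapped control Kac. From 2 upward, SB Kac covered 2.05%. When lists were cut to their 15000 strongest peaks by −log10 p, control Kac kept 3 genes with a peak, 0 marked starts, 3 peaks, 0.765% covered, a median percentile of 8.64 and a share overlapping SB Kac of 100%. SB Kac kept 4 genes, 4 peaks and 1.00%. Of 4 genes with Kac in either list, 1 then had less Kac cover in SB and 3 had more. With any annotated start, SB Kac marked 2 genes (AFP and VTN), and within 1 kb of the start control Kac marked 2 (HPX and VTN).

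In gene bodies alone, control Kac had 6 peaks with a median percentile of 32.5, SB Kac 5 peaks at 4 genes, and Kbz 1 peak at 1 gene covering 0.209%. With 50 kb on either side, control Kac had 30 peaks covering 5.65%, SB Kac 29 covering 5.77% with a median percentile of 80.9, and Kbz 12 peaks at 6 genes covering 1.99%. Without peaks on the starts of other genes, Kbz kept 1 peak at 1 gene, HPX, covering 0.112%. These last 2 kinds of change follow from the territory counted. The Kbz median percentile was not computed in 2 settings, where 1 gene was left. Unknown depth limits every count of peaks.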

Other observations

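Among the other 32 plasma protein genes of the liver, the highest shares of a window under Kbz were those of C3, the central complement component (8.47%), and A1BG (7.18%), although neither start lay under a Kbz peak. Kbz covered 0 bases in 19 of the 32, so the lowest are tied. No peak of any list was found in the windows of 10 of the 32, beside 13.7% of all protein-coding genes. Among the 10 were APCS, CRP, F9, HP, HRG and PLG. APOB, the main protein of low-density lipoprotein, was also without a peak, and so was FOXA2 among the liver transcription factor genes. APOA5 and APOC1 had their starts under all 3 lists.

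A list of 12 transcription factor genes of kidney development was added after the data were seen. Their starts lay under control Kac in 7 (58.3%), SB Kac in 9 (75%) and Kbz in 6 (50%), beside 59.1%, 60.4% and 45.8% of all protein-coding genes. All 12 had a peak of both Kac lists in the window, beside 84.5% (control Kac) and 83.1% (SB Kac) of all protein-coding genes. EYA1, LHX1, WT1 and EMX2 were among those with the start under all 3 lists. Several of these factors act in other tissues too, the list was picked for its values, and what its marks say about the cells was not tested.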
